A study of Mus musculus with 36 samples.

Results

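Enzymes of amino acid breakdown encoded by 9 genes, *Tat*, *Tdo2*, *Prodh*, *Gpt*, *Gpt2*, *Hpd*, *Sds*, *Hal* and *Aass*, were followed in mouse livers with and without thyroid hormone receptor beta (THRB). They were chosen by gene name, and all 9 were found among the 54532 genes of the deposited count table and among the 17994 genes tested. RNA was sequenced from livers of 36 young adult male mice of the B6.129S1-Thrbtm1Df/J line on a C57Bl/6NCrl background, fed chow under a light:dark cycle. The 18 control mice were heterozygous (THRB+/-, called THRBWT) and the 18 knockout mice homozygous (THRB-/-, called THRBKO), so every animal carried at least one altered allele, and the loss affected the whole body and both receptor isoforms. Livers were taken every 4 h from ZT2 to ZT22 (zeitgeber time, counted in hours from the onset of light), with 3 mice of each genotype at a time, named a, b and c.

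The liver is the main site where surplus amino acids lose their nitrogen to the urea cycle and pass their carbon to glucose, ketone bodies or the citric acid cycle. Many of the enzymes that open these routes are raised by glucocorticoids, glucagon, fasting or protein-rich food, and they follow the daily rhythm of feeding. Thyroid hormone acts in hepatocytes mainly through THRB, a nuclear receptor that binds pairs of the half-site AGGTCA in DNA.

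Each gene was located on GRCm38 by the coordinates of the count table. *Tat* (ENSMUSG00000001670), tyrosine aminotransferase, starts tyrosine breakdown and lies at chr8:109990437-109999803. *Hpd* (ENSMUSG00000029445), 4-hydroxyphenylpyruvate dioxygenase, takes the step after *Tat* and lies at chr5:123171807-123182727. *Tdo2* (ENSMUSG00000028011), tryptophan 2,3-dioxygenase, opens the kynurenine route of tryptophan and lies at chr3:81957090-81976202. *Prodh* (ENSMUSG00000003526), the mitochondrial proline dehydrogenase, lies at chr16:18060357-18090203. *Gpt* (ENSMUSG00000022546) and *Gpt2* (ENSMUSG00000031700), the cytosolic and the mitochondrial alanine transaminase, lie at chr15:76695716-76699686 and at chr8:85492576-85527560. *Sds* (ENSMUSG00000029597), serine dehydratase, turns serine into pyruvate and lies at chr5:120476526-120483932. *Hal* (ENSMUSG00000020017), histidine ammonia-lyase, opens histidine breakdown and lies at chr10:93488768-93519304. *Aass* (ENSMUSG00000029695), aminoadipic semialdehyde synthase, opens lysine breakdown and lies at chr6:23072173-23132986. In GENCODE vM21 the longest coding transcripts of these genes had from 9 exons (*Sds*) to 24 exons (*Aass*).

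Promoter sequences from RefSeq (build GRCm38.p6, 250 bases before to 50 bases after the start of transcription) were at hand for 7 of the 9 genes, all but *Gpt* and *Sds*. Shown 5′ to 3′ on the strand of the gene are those of *Prodh*, which carried the genotype difference, and of *Tdo2* and *Hal*, whose rhythms peaked early (*Hal*) and late (*Tdo2*) in the light phase. Capitals mark matches to the letters searched on both strands.
*Prodh*, chr16:18089141-18089440, minus strand: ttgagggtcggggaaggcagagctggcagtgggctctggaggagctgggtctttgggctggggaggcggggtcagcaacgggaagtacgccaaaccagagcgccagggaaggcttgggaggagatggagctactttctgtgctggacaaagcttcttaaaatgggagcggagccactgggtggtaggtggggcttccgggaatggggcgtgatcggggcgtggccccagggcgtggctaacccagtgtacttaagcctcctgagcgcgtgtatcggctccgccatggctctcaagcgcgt
*Tdo2*, chr3:81975679-81975978, minus strand: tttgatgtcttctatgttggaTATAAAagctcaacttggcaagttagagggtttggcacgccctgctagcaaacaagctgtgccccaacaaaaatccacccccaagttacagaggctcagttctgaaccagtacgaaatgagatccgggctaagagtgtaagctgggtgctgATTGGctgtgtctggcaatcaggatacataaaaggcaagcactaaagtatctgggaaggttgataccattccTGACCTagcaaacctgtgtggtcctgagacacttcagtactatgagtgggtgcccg
*Hal*, chr10:93488518-93488817, plus strand: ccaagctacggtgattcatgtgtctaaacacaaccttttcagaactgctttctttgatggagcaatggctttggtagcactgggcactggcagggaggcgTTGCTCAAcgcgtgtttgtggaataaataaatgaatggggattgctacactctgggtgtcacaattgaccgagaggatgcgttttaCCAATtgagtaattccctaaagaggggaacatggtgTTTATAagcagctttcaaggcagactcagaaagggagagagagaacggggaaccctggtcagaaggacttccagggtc
The half-site AGGTCA was matched in 2 of the 7 promoters, in *Tdo2* with its first base 6 bases before the start (as TGACCT on the strand shown) and in *Aass*, against 16.3% of all 32851 promoters. A direct repeat of it with 4 bases between, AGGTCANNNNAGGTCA, was in none of the 7 and in 0.0152% of all promoters. CCAAT was in 4 of the 7 (*Tat*, *Tdo2*, *Hal*, *Aass*) and in 37.4% of all promoters. The letters TTGCNNAA, a C/EBP site, were in 2 (*Hal*, *Aass*) against 10.8%, and TATAAA was in 2 (*Tdo2*, *Hal*) against 13.6%. The glucocorticoid receptor half-site TGTTCT (19% of all promoters), its palindrome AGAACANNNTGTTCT (0.00913%), the E-box CACGTG (7.15%) and the D-box TTATGNAA (3.38%) were matched in none of the 7. The *Prodh* window held none of the letters searched. The windows of *Prodh* and *Tdo2* lay wholly inside the gene coordinates given above. They therefore did not reach the 5′ ends of these 2 genes in the count table. For all 7 genes the matches describe exact letters in these 300 bases and not the binding of a receptor or factor. Sites outside these windows were not searched.

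Libraries held from 29063273 to 39913574 counts in THRBWT mice (median 33540565) and from 31008555 to 42530551 counts in THRBKO mice (median 34190848). The fewest reads of a member in a library were 2841 for *Sds*, so counting error was small beside the spread between mice. *Thrb* itself had 28.9 ± 3.69 CPM (SD, n = 18) in THRBWT and 31.5 ± 2.70 CPM (SD, n = 18) in THRBKO livers, and these counts do not separate altered from intact transcripts, so they gave no check of the genotype. CPM values are counts scaled to a common library size by TMM factors. The 5 hepatocyte markers (*Alb*, *Apoa1*, *Ttr*, *Cps1*, *Serpina1a*) summed to 61210 to 88560 CPM in THRBWT and 68050 to 92520 CPM in THRBKO livers. The adipocyte markers *Adipoq* and *Plin1* were in the count table but had too few counts to be tested. Their CPM values were not computed. Of 34 tested markers of liver and foreign cell types none was called for genotype by edgeR (6 at an unadjusted p under 0.05, none called by DESeq2). In the same edgeR test 2169 of all 17994 genes had an unadjusted p under 0.05.

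Compared per kilobase of gene length in THRBWT livers, the tyrosine enzymes were the most abundant, *Hpd* at 836 ± 97.3 CPM per kb and *Tat* at 651 ± 220 CPM per kb (SD, n = 18). *Tdo2* followed at 343 ± 61.5 CPM per kb. A middle group held *Gpt* at 109 ± 14.3, *Sds* at 96.3 ± 53.2, *Hal* at 86.6 ± 22.3, *Gpt2* at 69.8 ± 19.8 and *Aass* at 65.4 ± 10.1 CPM per kb (SD, n = 18). Neighbours in this middle group were closer to each other than their standard deviations, while *Hpd* and *Tat* differed by less than the standard deviation of *Tat* and more than that of *Hpd*. *Prodh* was the lowest by this measure at 27.9 ± 6.29 CPM per kb (SD, n = 18), below *Aass* by more than the sum of both standard deviations. The gene length used was 7797 bases for *Prodh*, whose longest coding transcript in GENCODE vM21 had 2386 bases. For *Aass* these lengths were 3817 and 3701 bases. Levels per kilobase of transcript were not computed, so the low rank of *Prodh* holds for the gene length only.

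**Figure D1:**
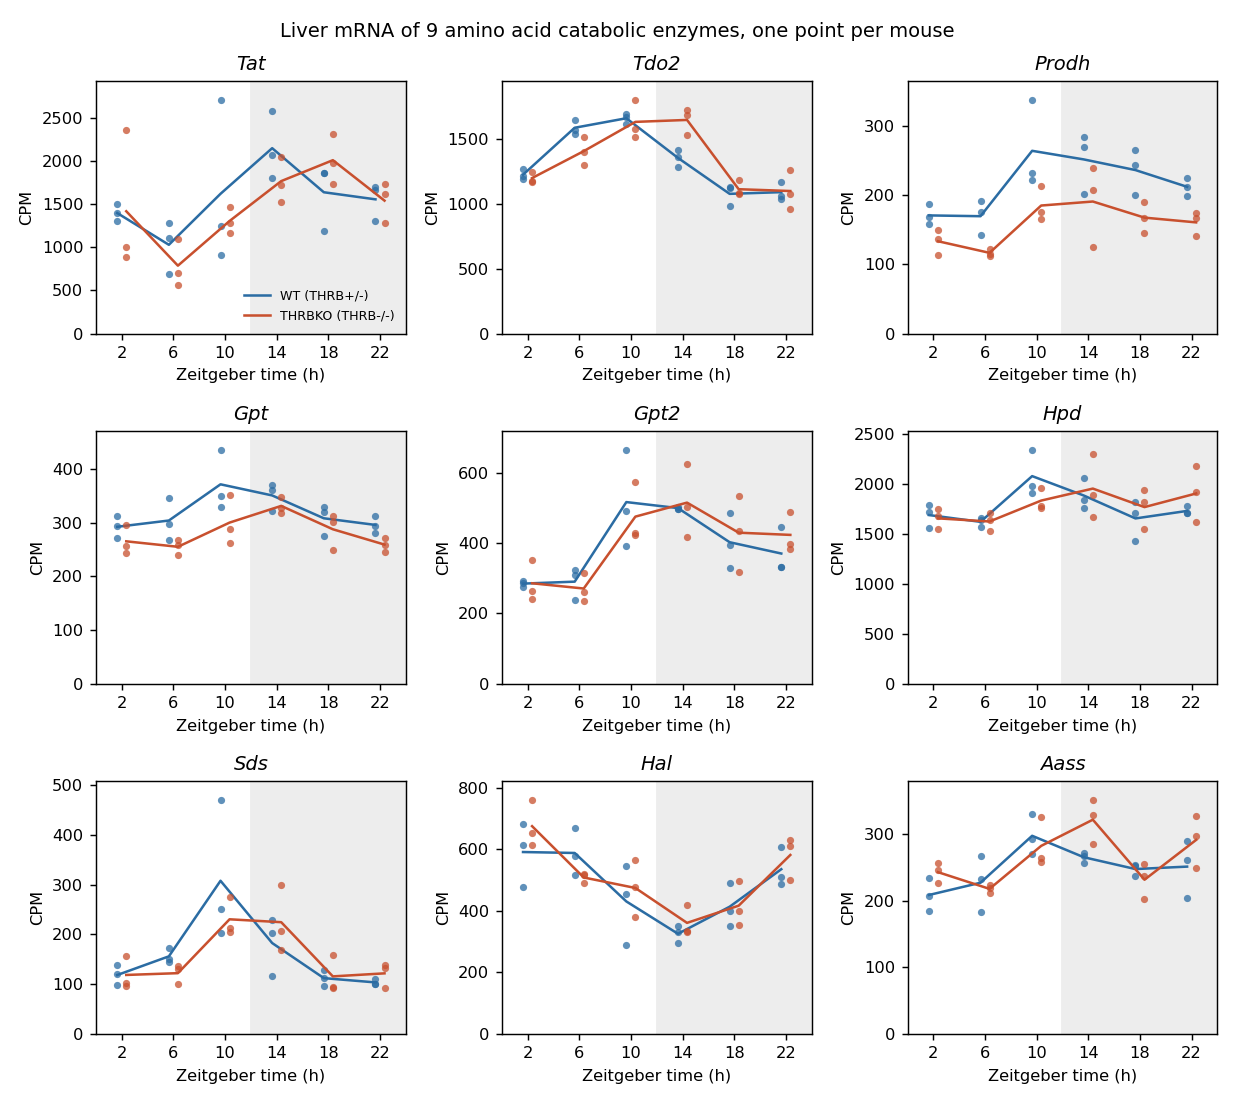
Liver mRNA of the 9 enzymes in CPM (vertical axes, from 0) against zeitgeber time in hours. Each point is 1 mouse, lines join the means of 3 mice, blue is THRBWT, red is THRBKO and grey marks the dark phase; the red *Prodh* points lie under the blue ones at every time but ZT14, and *Hal* has its lowest means at ZT14, when those of *Tat* and *Gpt2* were high.

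The question put to the genotype comparison was whether the livers without THRB carried more or less mRNA of these enzymes at the same time of day. *Prodh* and *Gpt*, the proline and the cytosolic alanine enzyme, were lower in THRBKO livers, and the other 7 enzymes did not pass the test. With sampling time in the model, edgeR called 171 of 17994 genes at an adjusted p under 0.05, 0.95% of all genes tested, of which 80, 0.445%, were lower. Of the 9 members 2 were called, both lower. In whole liver, fewer cells of a type and less RNA per cell cannot be told apart.

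*Prodh* averaged 217 ± 49.0 CPM in THRBWT (SD, n = 18, lowest 142, median 207, highest 338) and 159 ± 36.7 CPM in THRBKO livers (SD, n = 18, lowest 112, median 158, highest 239). Its log2 fold change was -0.45 (standard error 0.069, 95% confidence interval -0.59 to -0.31, Benjamini-Hochberg adjusted p = 0.000138 in the quasi-likelihood test of edgeR), a level lower by 26.8%.

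At ZT2 *Prodh* had 158, 168 and 186 CPM in the 3 THRBWT mice and 137, 113 and 150 CPM in the 3 THRBKO mice. At ZT6 the values were 142, 175 and 191 CPM against 122, 112 and 115 CPM. At ZT10 they were 338, 232 and 222 CPM against 212, 166 and 176 CPM. Every THRBKO mouse was below every THRBWT mouse at these 3 times. At ZT14 *Prodh* had 284, 201 and 269 CPM in THRBWT and 239, 208 and 126 CPM in THRBKO mice, and here the groups overlapped. At ZT18 the values were 244, 200 and 265 CPM against 145, 166 and 190 CPM. At ZT22 they were 225, 212 and 199 CPM against 141, 167 and 173 CPM. The groups were again apart at ZT18 and ZT22, so that THRBKO mice were wholly below THRBWT mice at 5 of 6 times, as was the case for 10 of the 17994 genes tested (0.0556%). The mean was lower at 6 of 6 times, as for 4.14% of all genes.

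*Prodh* kept its call in 36 of 36 fits that left out 1 library, with log2 fold changes from -0.48 to -0.42. The gene *Dgcr6* runs across part of *Prodh* on the opposite strand, from 18052860 to 18071632 on chromosome 16, and the libraries do not record strand. *Dgcr6* had 54.2 ± 5.37 CPM in THRBWT and 46.4 ± 4.72 CPM in THRBKO livers (SD, n = 18 each), and edgeR gave a log2 difference of -0.22 with a standard error of 0.047 (adjusted p = 0.00967). The annotated exons of *Prodh* and *Dgcr6* share 0 bases in GENCODE vM21, and mean counts per library were 6379 for *Prodh* and 1708 for *Dgcr6*. Whether reads of one were counted for the other was not tested. Of the 5 further tested genes within 150 kb of *Prodh* none was called by edgeR or DESeq2 (1 at an unadjusted p under 0.05 in edgeR), with log2 fold changes between -0.083 (*Slc25a1*) and 0.032 (*Zdhhc8*).

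*Gpt* averaged 321 ± 41.9 CPM in THRBWT (SD, n = 18, lowest 269, median 316, highest 436) and 283 ± 36.2 CPM in THRBKO livers (SD, n = 18, lowest 240, median 270.0, highest 351). Its log2 fold change was -0.18 (standard error 0.046, 95% confidence interval -0.27 to -0.086, edgeR adjusted p = 0.0454), a level lower by 11.7%. The means were lower at 6 of 6 times, as for 4.14% of all genes. At ZT6 *Gpt* had 269, 346 and 299 CPM in THRBWT and 259, 240 and 268 CPM in THRBKO mice, and at ZT22 it had 312, 281 and 295 CPM against 246, 260 and 273 CPM. The groups did not overlap at these 2 times and overlapped at the others. Of all genes 4.2% were wholly lower at ZT6, 4.86% at ZT22 and 4.15% at 2 or more of the 6 times. This call was close to the threshold and was kept in 12 of 36 fits without 1 library, with adjusted p from 0.0266 to 0.0773 and log2 fold changes from -0.19 to -0.16. It was not kept when all mice named a, all named b or all named c were left out (adjusted p from edgeR 0.441, 0.115 and 0.254), with log2 fold changes of -0.16, -0.20 and -0.19. These fits did not pair mice. With mice of the same time and letter taken as pairs, the adjusted p of *Gpt* from edgeR was 0.0131.

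The second alanine transaminase, *Gpt2*, had 394 ± 112 CPM in THRBWT and 400.1 ± 116 CPM in THRBKO livers (SD, n = 18 each). Its log2 difference of 0.019 had a 95% confidence interval from -0.14 to 0.18. For the tyrosine enzymes, *Tat* had a log2 difference of -0.11 (interval -0.37 to 0.15), which ran from -0.20 to -0.026 when 1 library was left out (the latter without the THRBWT mouse a at ZT10) and from -0.22 to -0.0071 without the mice of a letter, and *Hpd* one of 0.013 (interval -0.082 to 0.11). The interval of *Hpd* was narrow and that of *Tat*, whose levels ran from 562 to 2714 CPM over the 36 mice, was the widest of the 9. *Tdo2* differed by 0.019 (interval -0.064 to 0.10), *Sds* by -0.032 (interval -0.26 to 0.20), *Hal* by 0.067 (interval -0.079 to 0.21) and *Aass* by 0.080 (interval -0.035 to 0.20). Adjusted p-values of these 7 lay between 0.623 and 0.952. Over the 9 members the median log2 fold change was 0.0134 and the median of its absolute value 0.0671, against -0.00112 and 0.0733 over all genes tested.

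**Figure D2:**
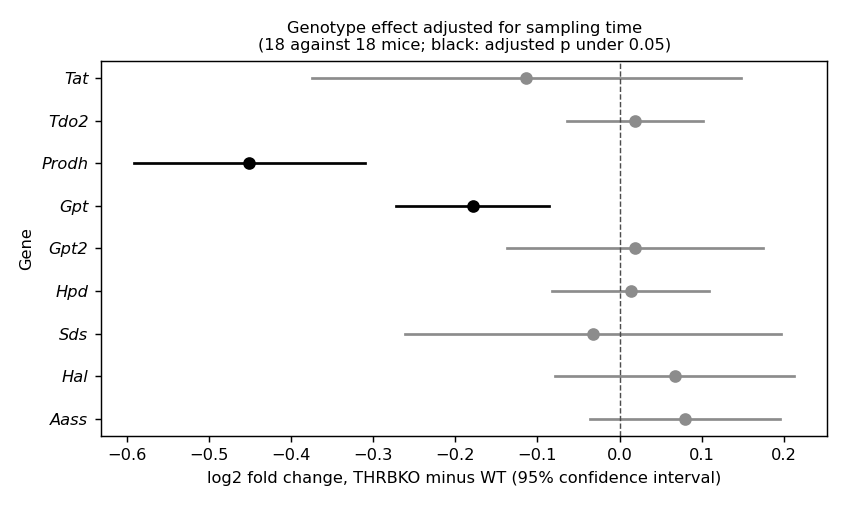
Log2 fold change of each enzyme, THRBKO minus THRBWT, adjusted for sampling time (horizontal axis), with 95% confidence intervals from 18 against 18 mice. *Prodh* at -0.45 and *Gpt* at -0.18 are drawn in black as called, and the intervals of the other 7 genes include 0.

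At single times, with 3 mice against 3, none of the 54 differences of members was called by edgeR, which called between 2 and 5 of 17994 genes per time (0.0278%, 0.0111%, 0.0167%, 0.0167%, 0.0222% and 0.0222% from ZT2 to ZT22). Of these 54 differences 9 had an unadjusted p under 0.05 in edgeR, where between 741 and 977 of 17994 genes did at each time. They were those of *Prodh* from ZT6 to ZT22, of *Gpt* at ZT6 and ZT10, and of *Tdo2* and *Aass* at ZT14. DESeq2 called none of the 54. The log2 differences of *Prodh* were -0.36, -0.54, -0.51, -0.40, -0.50 and -0.40 from ZT2 to ZT22. The value at ZT14 was the least stable, at -0.12 without the mice named c and -0.61 without those named b, and those at the other times stayed between -0.68 and -0.26 when the mice of a letter were left out.

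*Tdo2* gave values on both sides of the controls. At ZT6 it had 1538, 1649 and 1571 CPM in THRBWT and 1518, 1397 and 1302 CPM in THRBKO mice. At ZT14 it had 1362, 1416 and 1283 CPM in THRBWT and 1687, 1724 and 1528 CPM in THRBKO mice. The groups were apart at both times, with THRBKO lower at ZT6 (log2 difference -0.17) and higher at ZT14 (0.28), and overlapped at the other 4. At ZT6 4.2% of all genes had every THRBKO mouse below every THRBWT mouse, and at ZT14 4.84% had every THRBKO mouse above. The other genes whose groups were apart at a time were *Sds*, lower in THRBKO mice at ZT6 (log2 difference -0.35), and *Aass*, higher at ZT14 (0.28).

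A test of whether the genotype difference varied with time called 0 of 17994 genes (0%) in edgeR, with 484 at an unadjusted p under 0.05, and 0 in DESeq2. Among the members only *Tdo2* reached an unadjusted p under 0.05, at 0.0363 in edgeR, where its adjusted p was 1.

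**Figure D3:**
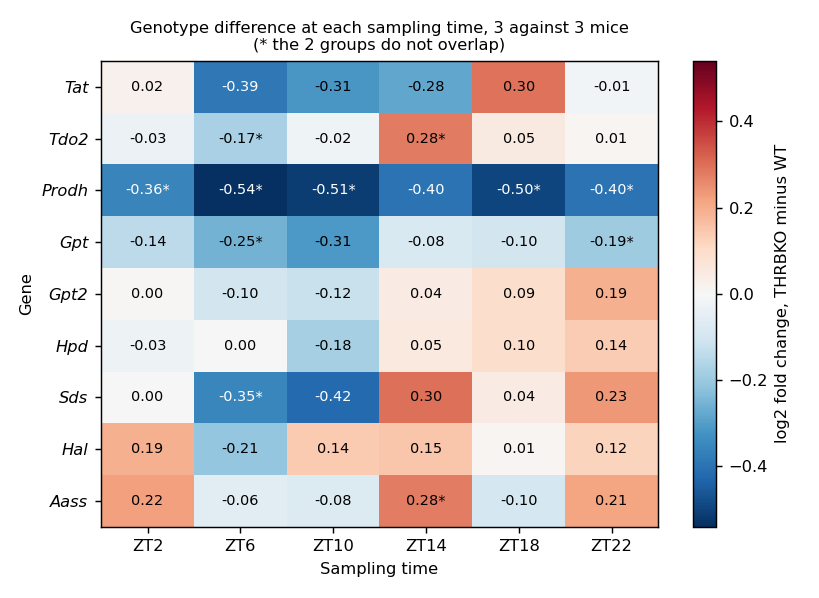
Log2 fold change, THRBKO minus THRBWT, of each enzyme (rows) at each sampling time (columns), from 3 against 3 mice, with blue for lower and red for higher in THRBKO livers. Stars mark pairs of groups that do not overlap: 5 of the 6 *Prodh* cells carry one and are all blue, and *Tdo2* is blue at ZT6 (-0.17) and red at ZT14 (0.28).

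The second question was whether the enzymes kept their daily rhythm without THRB. In THRBWT livers 6 of the 9 members had a 24-h rhythm, where 33% of all genes tested did, and in THRBKO livers 7 of the 9 had one, against 28.9% of all genes (adjusted p under 0.05 for the sine and cosine terms in edgeR). *Tdo2*, *Prodh*, *Gpt*, *Gpt2*, *Sds* and *Hal* were rhythmic in both genotypes. *Tat* was called in THRBKO (adjusted p = 0.0148, edgeR) and not in THRBWT livers (adjusted p = 0.0843), and *Hpd* and *Aass* in neither. When the mice of a single letter were left out, *Tdo2* and *Hal* kept their calls in both genotypes in all 3 fits, while *Gpt* lost its call in THRBWT in all 3 and each of *Prodh*, *Gpt*, *Gpt2*, *Sds* and *Tat* lost its call in THRBKO at least once. An amplitude is the distance from the mean to the peak of a fitted 24-h cosine on the log2 scale. Their median over the 9 members was 0.342 in THRBWT and 0.326 in THRBKO livers, against 0.209 and 0.196 over all genes tested and 0.308 and 0.307 over the genes called rhythmic.

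*Hal* peaked apart from the other enzymes, early in the light phase, at ZT2.40 ± 0.74 (standard error in hours) in THRBWT and ZT1.99 ± 0.64 in THRBKO livers. At ZT2 it had 479, 614 and 682 CPM in THRBWT and 613, 652 and 761 CPM in THRBKO mice. At ZT14 the values were 331, 296 and 349 CPM against 418, 330.2 and 334 CPM. Mean levels at ZT2 were 1.82 times those at ZT14 in THRBWT and 1.87 times in THRBKO livers. The amplitudes were 0.43 ± 0.084 and 0.40 ± 0.068 (log2 scale, standard error).

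*Tdo2* had the most regular rhythm of the 9 in THRBWT livers, with an amplitude of 0.34 ± 0.025 (log2 scale, standard error), a peak at ZT8.63 ± 0.27 and 0.928 of the variance between the 18 mice on the fitted curve. In THRBKO livers the amplitude was 0.33 ± 0.046, the peak ZT10.4 ± 0.53 and the share 0.773. The highest mean was at ZT10 in THRBWT (1659 CPM) and at ZT14 in THRBKO livers (1646 CPM), and the lowest at ZT18 (1077 CPM) and ZT22 (1098 CPM). The fitted peak was thus 1.78 h later in THRBKO livers (standard error 0.601 h), a difference of rhythm that had an unadjusted p of 0.0253 and an adjusted p of 1 in edgeR.

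*Sds* had the largest amplitude of the 9 in THRBWT livers, 0.67 ± 0.13 (log2 scale, standard error), with a peak at ZT10.2 ± 0.72. Its mean rose from 103 CPM at ZT22 to 308 CPM at ZT10, and the 3 mice at ZT10 ran from 203 to 470 CPM. In THRBKO livers the amplitude was 0.54 ± 0.13 and the peak ZT11.7 ± 0.95, with 212, 275 and 204 CPM at ZT10. The lowest values of both groups at ZT10 were alike, and 1 THRBWT mouse stood above all others. *Sds* shares 360 exon bases with *Plbd2* on the opposite strand and 141 with the antisense gene *Gm15690* (GENCODE vM21), and its mean count per library was 5528 against 3569 and 228, and the libraries cannot tell reads of these shared bases apart.

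The alanine enzymes and *Prodh* peaked around the start of the dark phase. *Gpt2* had an amplitude of 0.43 ± 0.089 with a peak at ZT14.0 ± 0.80 in THRBWT and of 0.44 ± 0.10 with a peak at ZT15.2 ± 0.88 in THRBKO livers. *Prodh* had 0.32 ± 0.077 at ZT14.7 ± 0.93 and 0.29 ± 0.089 at ZT15.2 ± 1.16, and the 2 curves differed by -0.024 in amplitude (standard error 0.12) and by 0.55 h in peak (standard error 1.49 h). *Gpt* had the smallest amplitude of the rhythmic members, 0.17 ± 0.047 at ZT12.0 ± 1.06 and 0.17 ± 0.046 at ZT13.8 ± 1.04. *Tat* peaked in the dark phase at ZT16.4 ± 1.48 with an amplitude of 0.38 ± 0.15 in THRBWT and at ZT17.6 ± 0.90 with 0.59 ± 0.14 in THRBKO livers. Its mean at ZT14 was 2.09 times that at ZT6 in THRBWT livers, and its mean at ZT18 was 2.55 times that at ZT6 in THRBKO livers. *Aass* (amplitudes 0.19 and 0.14) and *Hpd* (0.12 and 0.10) had the flattest curves beside *Gpt*.

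No rhythm passed the test for a difference between genotypes. The test in edgeR called 0 of 17994 genes (0%) for a difference in sine and cosine terms, with 553 at an unadjusted p under 0.05, and DESeq2 called 0. Among the members 1, *Tdo2*, had an unadjusted p under 0.05. The call of *Tat* in one genotype alone is therefore not shown to be a difference (amplitude difference 0.21, standard error 0.20). Of the 6 members rhythmic in both genotypes 5 had a later fitted peak in THRBKO livers, by 0.55 h (*Prodh*) to 1.82 h (*Gpt*), and that of *Hal* differed by -0.42 h. Of all 3872 genes rhythmic in both genotypes 66.6% had a later fitted peak in THRBKO livers, with a median shift of 0.395 h. The shift of *Tdo2* was the 1 among the members that exceeded 2 standard errors.

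**Figure D4:**
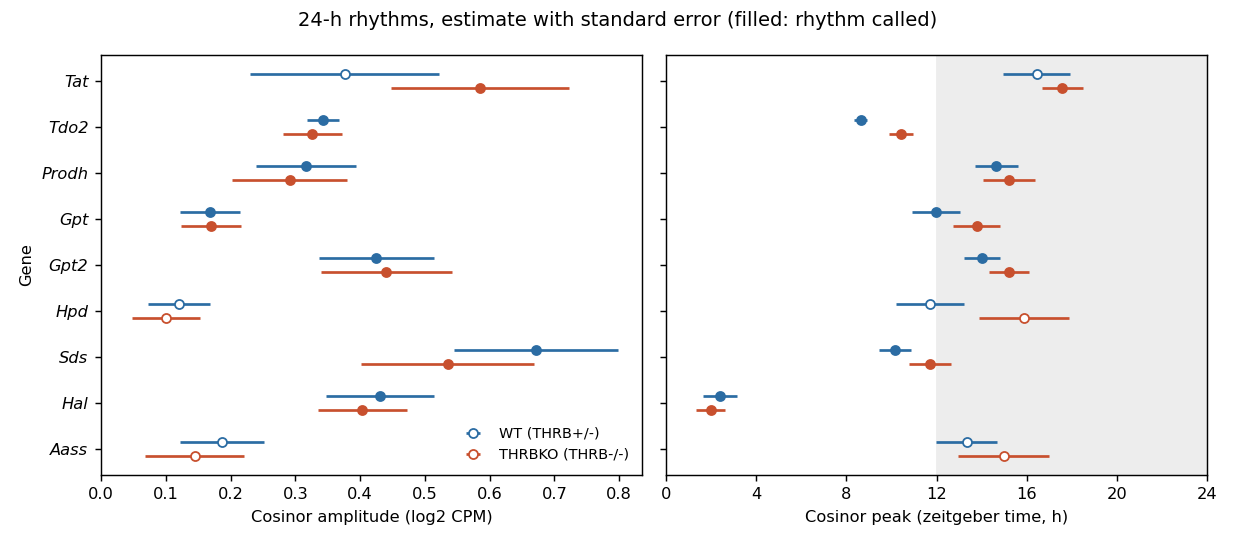
Amplitude in log2 CPM (left) and peak in hours of zeitgeber time (right) of a 24-h cosine fitted to 18 mice per genotype, with standard errors, for each enzyme (rows). Filled symbols mark rhythms called by edgeR (6 in THRBWT, 7 in THRBKO), and *Hal* with its peak near ZT2 is the one gene away from the range between ZT8.63 and ZT17.6.

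One THRBWT mouse, a at ZT10, had the highest value of the 18 THRBWT mice for 7 of the 9 members, among them *Tat* at 2714 CPM, *Sds* at 470 CPM, *Gpt2* at 666 CPM and *Prodh* at 338 CPM. Without this library the log2 fold change of *Prodh* was -0.42 (adjusted p = 0.000227, edgeR) and that of *Gpt* -0.16 (adjusted p = 0.0758), and the difference of *Sds*, not called in either fit, turned from -0.032 to 0.042. Rhythms in THRBWT livers were then called for *Tat* (adjusted p = 0.0198, edgeR) and no longer for *Gpt* (adjusted p = 0.0581), with the other calls kept. ZT10 was also the time of the highest THRBWT mean of *Tdo2*, *Prodh*, *Gpt*, *Gpt2*, *Hpd*, *Sds* and *Aass*. The mean correlation of this library with its group was 0.981, where mice b and c at ZT10 had 0.983 and 0.981. The share of all genes with their highest value in this library was not counted. Why its values for these members were high was not tested.

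The genes most alike to each member were taken by the correlation of log2 CPM over the 36 libraries among 11909 genes, which is a description, since the libraries share 6 sampling times and 2 genotypes. *Hal* was most like *Lgals9*, the galectin 9 gene (r = 0.902). *Tdo2* was most like *Pnpla2*, which encodes adipose triglyceride lipase (r = 0.897) and was itself higher in THRBKO livers (log2 difference 0.16 ± 0.040, standard error, edgeR adjusted p = 0.0410). *Prodh* was most like *Slc46a3*, a gene of a lysosomal transporter (r = 0.87), which was itself lower in THRBKO livers (log2 difference -0.50 ± 0.058, standard error, edgeR adjusted p = 1.16e-06). *Gpt2* was most like *Slc2a4*, the insulin-responsive glucose transporter (r = 0.856), and *Sds* was most like the ethanolamine kinase gene *Etnk2* (r = 0.854). For *Tat*, *Aass*, *Hpd* and *Gpt* the nearest genes were *Gm44421* (r = 0.834), *Ttc38* (r = 0.811), *Slc15a4* (r = 0.782) and *Ccdc57* (r = 0.751). Within the set, *Prodh* and *Gpt* were the most alike over the 36 libraries (r = 0.818, and 0.726 after group means were removed). *Hal* and *Gpt2* had r = -0.356 over the 36 libraries and 0.756 after group means were removed, so their daily courses were opposed while mice of the same group varied together.

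The routes beyond these enzymes were followed in 51 further genes of 9 amino acid pathways, of which 49 were tested. None was called for genotype by edgeR, where 7 had an unadjusted p under 0.05, as did 2169 of all 17994 genes tested. DESeq2, which called 306 genes in all, called 2 of them, *Ivd* (edgeR log2 fold change 0.092, adjusted p = 0.122) and *Aldh6a1* (0.097, adjusted p = 0.131), both of branched-chain amino acid breakdown. The median log2 fold change of the 49 genes was 0.0178. In the proline route, *Aldh4a1*, which acts after *Prodh*, had a log2 difference of -0.0073 (standard error 0.032) and *Prodh2*, the hydroxyproline dehydrogenase, one of 0.012 (standard error 0.051). Neither was called beside the lower *Prodh*.

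Of the 49 genes 19 were rhythmic in THRBWT and 18 in THRBKO livers, not far from the 33% and 28.9% of all genes. The widest swings in THRBWT livers were those of *Acmsd*, which diverts tryptophan carbon from NAD synthesis (amplitude 0.99, peak ZT19.5), *Amdhd1*, which acts in the histidine route after *Hal* (0.68, ZT4.03), *Amt* of the glycine cleavage system (0.60, ZT0.793) and *Agxt*, alanine-glyoxylate aminotransferase (0.55, ZT4.89). *Amdhd1* and *Hal* both peaked early in the light phase, while *Acmsd* peaked in the dark phase, far from *Tdo2*.

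All 5 amino acid carriers were rhythmic in both genotypes (*Slc7a2* with an amplitude of 1.02 in THRBWT and 0.76 in THRBKO livers), and none was called for genotype by edgeR or DESeq2, with 0 at an unadjusted p under 0.05. Of 10 regulators of these routes 7 were rhythmic in THRBWT and 4 in THRBKO livers, against 33% and 28.9% of all genes, and none was called for a difference of rhythm. *Foxo1*, a fasting-responsive transcription factor, was higher in THRBKO livers, with 26.1 ± 6.21 CPM in THRBWT and 29.5 ± 5.38 CPM in THRBKO (SD, n = 18 each). Its log2 difference was 0.19 ± 0.043 (standard error, edgeR adjusted p = 0.0215). The other 9 regulators, among them the glucocorticoid receptor gene *Nr3c1* (log2 difference 0.053, standard error 0.038) and *Klf15* (0.058, standard error 0.071), were not called.

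**Figure D5:**
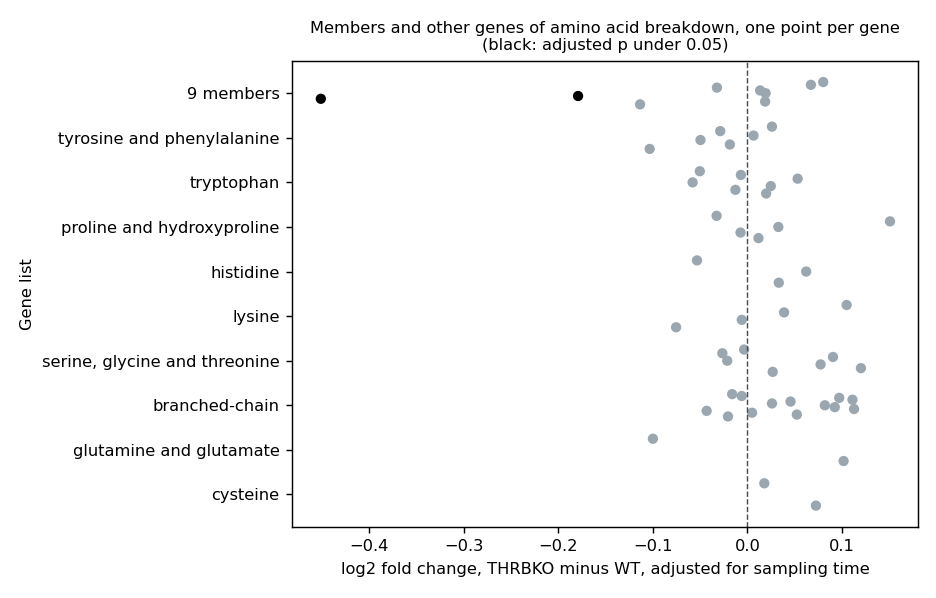
Log2 fold change, THRBKO minus THRBWT, adjusted for sampling time (horizontal axis), with 1 point per gene for the 9 enzymes and for the 49 tested genes of 9 pathway lists (rows). *Prodh* (-0.45) and *Gpt* (-0.18) are the 2 black, called points, and no point of the pathway lists is called.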

How the data were processed

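RNA of 36 livers was sequenced from poly-A selected, non-directional paired-end libraries. Per the labels and the methods, the authors mapped reads to GRCm38/mm10 with HISAT2, counted them per gene with FeatureCounts and deposited whole-number counts for 54532 genes without normalization. Versions, annotation release and treatment of reads with several matches are not given in the sources used here. The authors also name DESeq2.

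Groups were taken from the genotype and time labels. Genes whose counts summed to 100 or more entered the tests by edgeR 4.0.16 (glmQLFit and glmQLFTest, TMM factors, limma 3.58.1, R 4.3.3), with time as a factor beside genotype and with the Benjamini-Hochberg adjustment at 0.05 over all genes. Rhythms were tested by sine and cosine terms with a period of 24 h, and amplitudes and peaks were fitted by least squares to log2 CPM (prior count 2), with standard errors by the delta method. Scripts were tested on simulated data. CPM per kb use the gene length in the table. Replicates are separate mice. Promoters were read from RefSeq and motifs searched in Python 3.11.15, and exon overlaps used GENCODE vM21.

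The genes named are the members, the gene most alike to each among those with a mean of at least 50 counts, the listed pathway, regulator, carrier and marker genes called or with the largest amplitudes, and genes overlapping or near *Prodh*, the last chosen after values were seen. Members and lists were chosen with earlier results of these data known. Alternatives were DESeq2 1.42.0, DESeq2 size factors in edgeR, no or stricter filters on low counts, a replicate block, letters left out, sampling time left out or as a factor, and, added after seeing the data, single libraries left out.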

Additional observations from a re-analysis of the deposited data

Results flagged for a closer look

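*Tdo2* differed in opposite directions at 2 sampling times, with every THRBKO mouse below every THRBWT mouse at ZT6 (log2 difference -0.174) and above at ZT14 (0.282). Of all genes tested 4.2% were wholly lower at ZT6 and 4.84% wholly higher at ZT14. The share of genes apart in both directions was not counted. The contrast between ZT6 and ZT14 alone was not tested. The test over all 6 times gave an unadjusted p of 0.0363 and an adjusted p of 1 in edgeR. Groups of 3 mice were not screened for a single distant mouse.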

How the results depend on the processing

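*Prodh* was called in all alternatives run, with adjusted p up to 0.0326 (sampling time left out). *Gpt* was called with DESeq2 (adjusted p = 0.0165), its size factors, the stricter filter and the block (adjusted p = 0.0131), and was lost without the filter on low counts (adjusted p = 0.0683, edgeR) and with sampling time left out (adjusted p = 0.344), which leaves 1 called member in each. Genes called for genotype numbered 306 with DESeq2, 65 with sampling time left out and 40 to 81 without 1 letter, where 1 member was called each time. Without letter a, small values changed sign, so that without 1 letter *Hpd* ranged from -0.015 to 0.048, *Tdo2* from -0.021 to 0.045, *Gpt2* from -0.017 to 0.042 and *Sds* from -0.12 to 0.074 (log2). At single times *Gpt* ranged from -0.21 to 0.015 at ZT18, and *Tdo2* from -0.080 to 0.016 at ZT2, from -0.082 to 0.028 at ZT10, from -0.058 to 0.10 at ZT18 and from -0.14 to 0.16 at ZT22. Single-time calls over all genes numbered 51 with DESeq2 against 21, and 7 to 18 without 1 letter. Rhythmic genes without 1 letter numbered 3109 to 4005 in THRBWT, with 4 to 5 members, and 2343 to 3192 in THRBKO, with 3 to 5 members. *Prodh* lost its rhythm call in THRBWT without letter c and in THRBKO without letter a or b. In THRBWT livers DESeq2 added *Tat* (7 members), sampling time as a factor lost *Gpt* in both genotypes and added *Aass* in THRBKO, and without mouse a at ZT10 5790 genes and 6 members were rhythmic. Of 867 values under an alternative 777 kept direction and side of the threshold or moved little, and the cause of the other changes was not tested.

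Mice of the same time and letter were also taken as pairs. Over 18 such pairs the correlation of their deviations ran from -0.0665 to 0.331, with 14 over 0.1, and 33 of 36 libraries correlated best with their own letter, a hint from the data. Several pairs also carry neighbouring animal numbers, but the labels do not say what a letter marks. With this replicate block 387 genes were called for genotype, 2 of them members, and 1 gene for a difference of rhythm. The tests at single times and of rhythms within a genotype used a term for the letter in place of the pairs. Neither form of block changed a call of a member. The spread between mice and not depth limited precision for these genes.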
